A study of Mus musculus with 2 samples.

Results

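The Zic genes encode zinc finger transcription factors of the developing nervous system, and 4 of them, Zic1, Zic4, Zic2 and Zic5, were taken from the gene tables by their Ensembl identifiers, out of 21461 nuclear protein-coding genes. They were read in the hindbrain of 2 B6NCrl mouse pups at postnatal day 0, labelled pup 1 (replicate 1) and pup 3 (replicate 2), which the labels trace to the same donor record. Each library started from 13 pg of RNA longer than 200 nt, a quantity described as 1 cell-equivalent, so a library holds a very small sample of the RNA of all hindbrain cells, although the assay is named as single cell RNA-seq. No treatment or genotype is given, the sex was not collected, and the single group of 2 libraries allows no test. Fewer cells of a type and less RNA per cell cannot be told apart in such tissue RNA.

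Zic proteins bind DNA through a row of C2H2 zinc fingers that resemble those of the GLI factors of hedgehog signalling, and they also act as cofactors for other transcription factors. In the embryo they mark the dorsal neural tube, and in the hindbrain they are known from the rhombic lip, the cerebellar granule cell lineage, the dorsal medulla and the meninges. Zic1 is needed for normal cerebellar growth and foliation, and Zic4, its neighbour, is lost together with it in some cases of Dandy-Walker malformation. Zic2 is needed for midline development of the forebrain and for axon guidance at the optic chiasm, and Zic5, its neighbour, acts in neural tube closure and neural crest formation.

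The 4 genes lie as divergent pairs. On chromosome 9 (mm10), Zic1 (ENSMUSG00000032368.10, 91358058 to 91365810, minus strand) points away from Zic4 (ENSMUSG00000036972.10, 91362413 to 91389348, plus strand). On chromosome 14, Zic5 (ENSMUSG00000041703.7, 122456795 to 122465677, minus strand) points away from Zic2 (ENSMUSG00000061524.8, 122475435 to 122479852, plus strand). The main transcripts of the pairs start 12874 nt apart (Zic1-201 and Zic4-201) and 9758 nt apart (Zic5-201 and Zic2-201). A short Zic4 model, Zic4-208, starts inside Zic1, where 60 exonic bases of the genes overlap on opposite strands. Zic4-208 received 0 expected counts in both pups, and the strand setting of the counting is not stated. Zic2 and Zic5 share no exonic base.

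**Figure D1:**
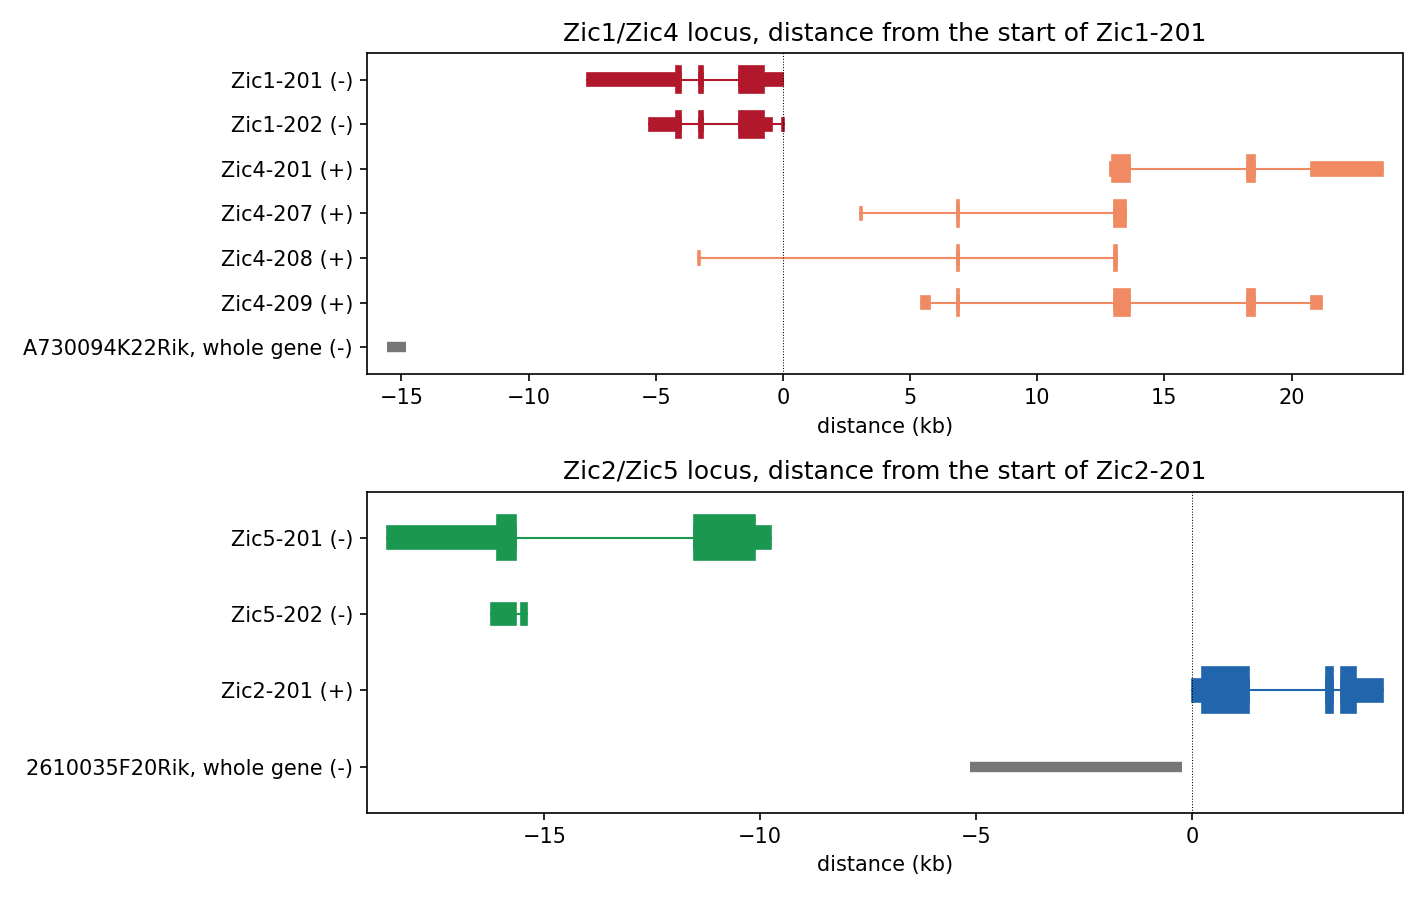
Gene models of the 2 Zic loci from GENCODE M21, with distance in kb from the start of Zic1-201 (top) or Zic2-201 (bottom). Tall boxes are coding, low boxes are non-coding exon parts, and thin lines are introns. In the top panel Zic4-208 reaches back into Zic1, and in the bottom panel the non-coding gene 2610035F20Rik, drawn as a grey bar over its whole extent, starts 236 nt from Zic2-201.

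The coding stretch below is shown because it tells how alike the members are at the level a sequencing read sees. It is the 90-base in-frame window most alike among the 4 main transcripts, and it codes for the start of the zinc finger region. It lies in 1 exon of each gene, at chr9:91364199-91364288 (minus) in Zic1, chr9:91379150-91379239 (plus) in Zic4, chr14:122476495-122476584 (plus) in Zic2 and chr14:122464055-122464144 (minus) in Zic5, in mm10. Capitals mark bases shared by all 4.
Zic1: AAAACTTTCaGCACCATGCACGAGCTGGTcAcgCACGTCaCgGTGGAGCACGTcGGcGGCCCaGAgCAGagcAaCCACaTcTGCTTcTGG
Zic4: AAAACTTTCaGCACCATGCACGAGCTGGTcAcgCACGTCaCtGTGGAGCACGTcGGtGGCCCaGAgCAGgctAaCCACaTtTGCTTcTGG
Zic2: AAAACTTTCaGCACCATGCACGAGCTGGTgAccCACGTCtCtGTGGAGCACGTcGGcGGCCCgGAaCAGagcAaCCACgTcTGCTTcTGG
Zic5: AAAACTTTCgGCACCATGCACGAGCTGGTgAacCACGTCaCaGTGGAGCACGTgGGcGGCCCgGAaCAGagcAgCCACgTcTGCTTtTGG
Of the 90 bases, 73 were the same in all 4 members, and 10 of the 17 variable positions were the third base of a codon. Zic1 and Zic4 shared 84 bases, Zic1 and Zic2 83, Zic2 and Zic5 83, and Zic4 and Zic5 74.

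No stretch as long as a fragment was shared between members. The lengths in the tables imply a fragment of 100 nt, and none of the 100-nt windows of any transcript of 1 member occurred in another member on either strand. The longest identical run between main transcripts was 42 nt, between Zic1 and Zic4. Between Zic1 and Zic2 it was 35 nt, and for the other 4 pairs it was 20 to 30 nt. The gene-level expected counts of all 4 members were within 0.005 of a whole number in both libraries, as were those of 77.8% of protein-coding genes detected in both.

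All 4 members were detected in both pups, with 5 or more expected counts as the limit of detection. Over all nuclear protein-coding genes, 37.8% were detected in both. The libraries held 35462381 expected counts in pup 1 and 29866728 in pup 3. Levels are in TPM, a share of transcripts that divides by transcript length, rescaled here over nuclear mouse genes. The interval beside a level is the credibility interval deposited with the table, on the same scale, whose level is not stated. It covers the estimate within a library and not the difference between animals.

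Zic1, the founding member of the family, had 3065 expected counts in pup 1 and 1427 in pup 3. Its level was 26.9 TPM in pup 1 (interval 25.5 to 27.5) and 14.2 TPM in pup 3 (13.3 to 14.9), a mean of 20.5 ± 8.96 TPM (SD, n = 2). Zic1 was thus 1.89-fold higher in pup 1 by TPM. As a share of nuclear counts it was 1.82-fold higher in pup 1, with a 95% exact binomial interval of 1.70 to 1.93 that covers counting error only. Reads copied in amplification can come from the same molecule, so this interval and those below are too narrow for molecules. They do not cover the difference between animals either.

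Zic4, transcribed away from Zic1, had 863 expected counts in pup 1 and 1643 in pup 3. Its level was 26.8 TPM in pup 1 (interval 24.4 to 30.6) and 23.7 TPM in pup 3 (22.6 to 25.1), a mean of 25.3 ± 2.16 TPM (SD, n = 2). By TPM it was 1.13-fold higher in pup 1, and as a share of nuclear counts it was 2.25-fold higher in pup 3 (95% exact binomial interval 2.07 to 2.45). The direction of its difference between pups therefore depended on the scale, and of the protein-coding genes detected in both pups 6.27% also stood on opposite sides of the 2 scales.

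Zic2 was the lowest of the 4, with 379 expected counts in pup 1 and 168 in pup 3. Its level was 7.81 TPM in pup 1 (interval 6.94 to 8.49) and 3.93 TPM in pup 3 (3.35 to 4.55), a mean of 5.87 ± 2.75 TPM (SD, n = 2). It was 1.99-fold higher in pup 1 by TPM and 1.91-fold higher by share of counts (95% exact binomial interval 1.59 to 2.30).

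Zic5, the partner of Zic2, had 1657 expected counts in pup 1 and 1055 in pup 3. Its level was 26.4 TPM in pup 1 (interval 23.7 to 28.1) and 12.4 TPM in pup 3 (11.5 to 13.7), a mean of 19.4 ± 9.91 TPM (SD, n = 2). It was 2.13-fold higher in pup 1 by TPM but 1.33-fold higher by share of counts (95% exact binomial interval 1.23 to 1.44).

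**Figure D2:**
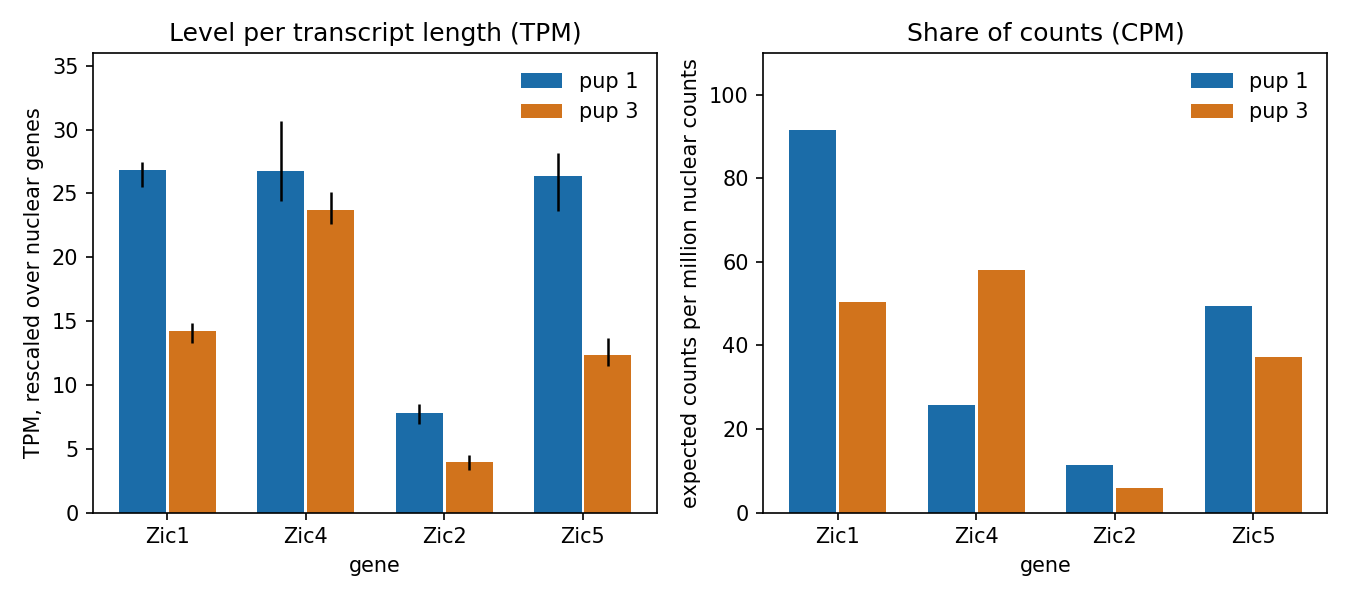
Level of the 4 Zic genes in each pup in rescaled TPM with the deposited credibility interval (left, bars with black lines) and in CPM, expected counts scaled by the nuclear total of the library (right). In TPM all 4 bars of pup 1 are the taller, while in CPM Zic4 is taller in pup 3, at 58.1 against 25.8.

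In pup 1 the intervals of Zic1, Zic4 and Zic5 overlapped, and Zic2 stood below them. In pup 3 Zic4 stood above the others, the intervals of Zic1 and Zic5 overlapped, and Zic2 was again the lowest. The order of mean levels was Zic4, Zic1, Zic5 and Zic2, but the gaps between the first 3 were smaller than the SD of Zic1 or Zic5. With 1 length per gene in both pups Zic1 came first, at a mean of 20.5 ± 8.96 TPM, before Zic4 at 17.4 ± 9.01, Zic5 at 14.7 ± 3.37 and Zic2 at 5.87 ± 2.75 (SD, n = 2). In pup 1 Zic1 exceeded 76.7% of nuclear protein-coding genes, Zic4 76.6%, Zic5 76.4% and Zic2 62.0%. In pup 3 the same shares were 68.7%, 73.8%, 67.8% and 62.4%. The median of protein-coding genes detected in both was 33.9 TPM in pup 1 and 37.6 TPM in pup 3, above every member in either pup.

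Within the chromosome 9 pair, Zic1 took 78.0% of the pair's counts in pup 1 (95% exact binomial interval 76.7 to 79.3%) and 46.5% in pup 3 (44.7 to 48.3%). The ratio of Zic1 to Zic4 in TPM was 1.00 in pup 1 and 0.598 in pup 3, or 2.45 and 0.598 with the length of the main transcript used in both pups. Within the chromosome 14 pair, Zic5 took 81.4% of the counts in pup 1 (79.6 to 83.1%) and 86.3% in pup 3 (84.2 to 88.1%). Zic5 thus held the larger part of the counts in both pups. The intervals did not overlap, but they cover counting error only, so this does not measure a difference between animals. The ratio of Zic5 to Zic2 in TPM was 3.38 in pup 1 and 3.15 in pup 3, but with that fixed length it was 2.19 and 3.15, so its direction depended on the length. Across the pairs, the ratio in TPM of Zic1 to Zic2 was 3.44 in pup 1 and 3.61 in pup 3, and that of Zic4 to Zic2 was 3.43 and 6.04, or 1.41 and 6.04 with the fixed length. Zic1 took 64.9% of the counts it shared with Zic5 in pup 1 (63.5 to 66.3%) and 57.5% in pup 3 (55.5 to 59.4%). Together the 4 genes came to 87.8 TPM (pup 1) and 54.2 TPM (pup 3), and to 178 and 152 CPM.

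Zic1 and Zic2, whose assigned length was the same in both pups, differed by less than the median of other genes at their level. Of 2413 protein-coding genes within 1.5-fold of the level of Zic1 in pup 1, 73.7% were detected in pup 3, and their median difference was 2.71-fold on the log2(TPM + 1) scale. On that scale Zic1 differed by 1.83-fold, more than 34.7% of them. Around Zic2 in pup 1 lay 1246 genes, of which 63.9% were detected in pup 3. They differed by a median of 5.04-fold, and Zic2 differed by 1.79-fold, more than 17.5% of them. No member differed by 4-fold in TPM or in share of counts, while 39.8% of protein-coding genes with at least 50 counts in 1 library did so on the log2(TPM + 1) scale. On that scale 61.9% of these genes passed 2-fold. Of the members, Zic5 passed 2-fold in TPM and not in share of counts (1.33-fold), and Zic4 passed it in share of counts (2.25-fold, higher in pup 3) and not in TPM. All 4 members had the higher TPM in pup 1, as did 45.7% of protein-coding genes detected in both, and 3 of 4 had the higher share of counts there, as did 45.5%.

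**Figure D3:**
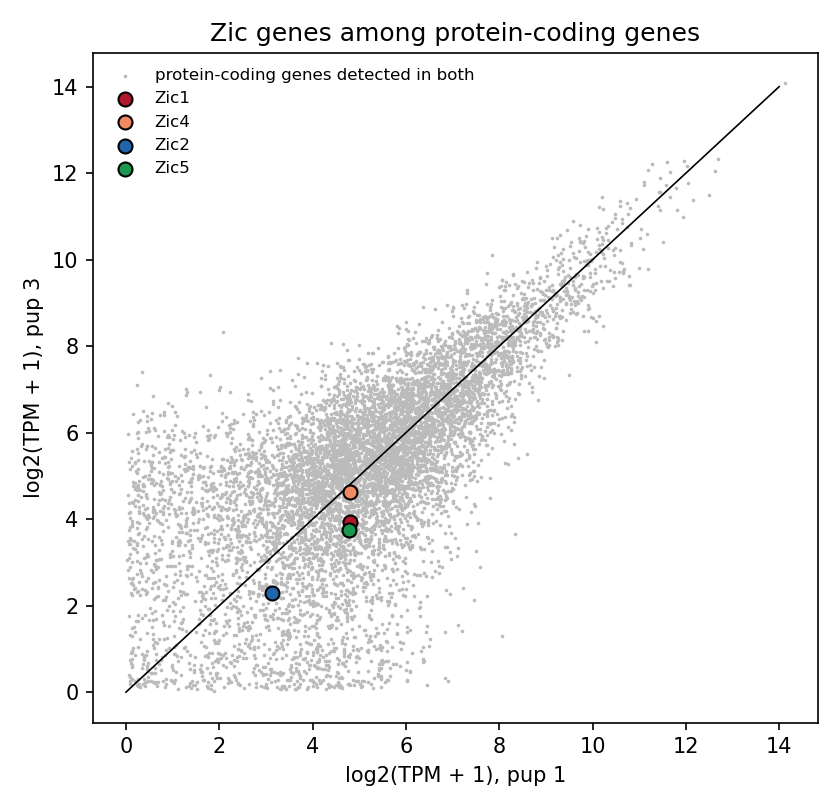
Level of 8102 protein-coding genes detected in both libraries (grey) in pup 1 and pup 3 on the log2(TPM + 1) scale, with the 4 Zic genes in colour and the line of equal levels. The Zic genes lie below the line, with Zic2 the lowest and Zic4 the nearest to it, although by share of counts Zic4 was higher in pup 3.

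The transcripts to which the counts were assigned differed between members. Zic1 has 3 transcripts in the tables and Zic2 has 2, and in both pups every expected count of these genes went to the long coding transcripts Zic1-201 (5606 nt) and Zic2-201 (2440 nt). Zic1-202, which splices out a part of the first exon, and the shorter models were listed at 0. In pup 3 Zic4 and Zic5 followed the same pattern, with all 1643 counts on Zic4-201 (3891 nt) and all 1055 on Zic5-201 (4767 nt).

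In pup 1 the counts of Zic4 were spread over 4 of its 12 transcripts. Zic4-201 received 579 of the 863 counts, or 67.1%, but only 27.5% of the TPM of the gene. Zic4-207, a coding model of 641 nt with 3 exons whose end the annotation marks as not found, received 187 counts and 62.0% of the TPM. Zic4-209 (1764 nt) received 91.0 counts and 9.84% of the TPM, and Zic4-202 received 6.02 counts. In TPM these were 7.37 for Zic4-201, 16.6 for Zic4-207 and 2.64 for Zic4-209 in pup 1, against 23.7 for Zic4-201 alone in pup 3.

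Junctions of these transcripts are shown with 15 bases on either side of each, lower case before the junction and capitals after it. The first joins exons 1 and 2 of Zic4-201 and is also present in Zic4-209. The next pair belongs to Zic4-207, which starts farther upstream. Of this pair, the junction of exon 2 to 3 is also present in Zic4-209. These shared junctions cannot tell Zic4-201 or Zic4-207 from Zic4-209. Among the Zic4 transcripts with counts, only Zic4-207 holds its junction of exon 1 to 2. The last pair belongs to Zic5, where different first exons are joined to the same base of exon 2.
Zic4-201, exon 1 to 2: aacgaacacatacagGCGAGAAACCTTTCA
Zic4-207, exon 1 to 2: atccaaatatacaagGCTCAAACTCAGAAA
Zic4-207, exon 2 to 3: ctctgaaagaatcaaGTAGCAGCTGTGGAC
Zic5-201, exon 1 to 2: agcgcactcatacagGGGAAAAGCCTTTCA
Zic5-202, exon 1 to 2: tacctggatattataGGGAAAAGCCTTTCA
Of the 542 windows of 100 nt in Zic4-207, 374 also occurred in Zic4-201 and 168 did not. In Zic5-202, a non-coding transcript of 705 nt, 484 of 606 windows also occurred in Zic5-201.

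Zic5 in pup 1 had 1523 counts on Zic5-201 and 134 on Zic5-202. The short transcript thus took 8.06% of the counts of Zic5 and 40.3% of its TPM, 10.6 TPM beside 15.8 TPM for Zic5-201. In pup 3 Zic5-202 was listed at 0. A transcript of highest share that differed between pups, as for Zic4, was seen in 37.7% of the 6095 protein-coding genes with several transcripts that were detected in both.

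**Figure D4:**
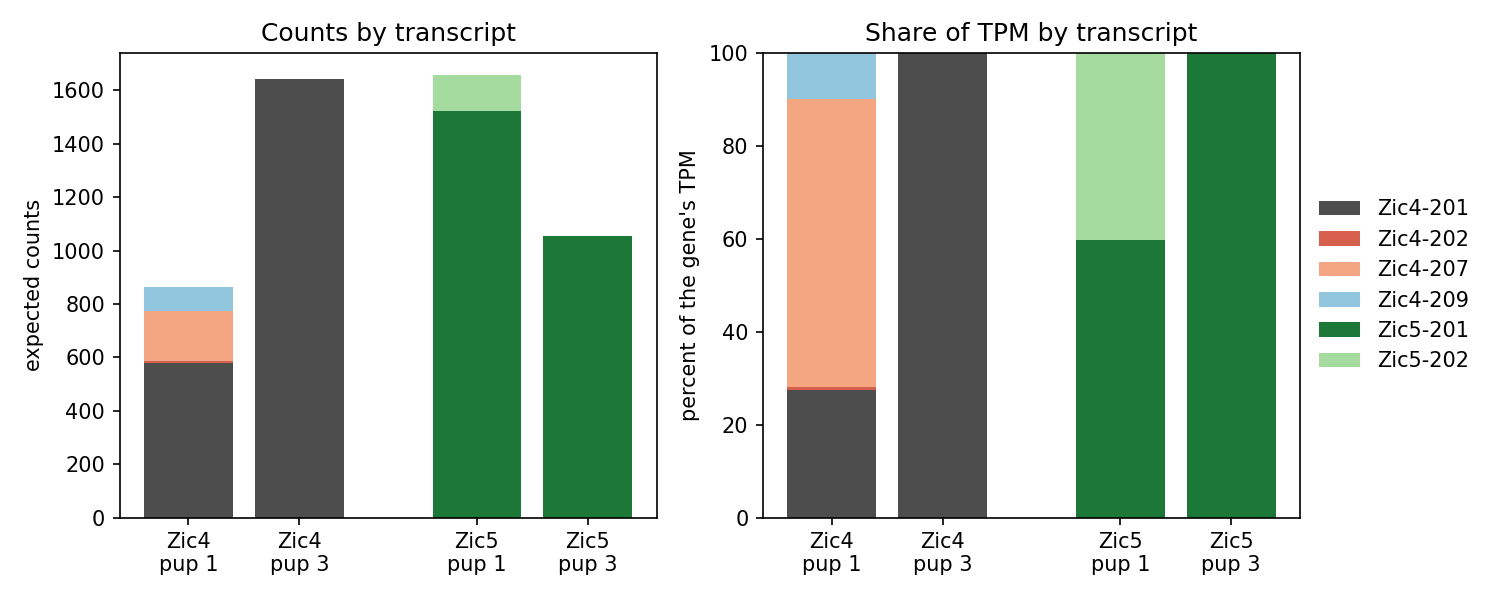
Expected counts (left) and percent of the TPM of the gene (right) assigned to each transcript of Zic4 and Zic5 in pup 1 and pup 3. Zic4-207 and Zic5-202 take small parts of the counts of pup 1 (187 of 863 and 134 of 1657) and large parts of the TPM, and neither is seen in pup 3.

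Because TPM divides by the length of the transcripts assigned, the effective length of a gene moved with these assignments. That of Zic4 was 1555 nt in pup 1 and 3792 nt in pup 3, a 2.44-fold difference, and that of Zic5 was 3030 nt and 4668 nt, a 1.54-fold difference. Zic4 alone of the 4 passed 2-fold, as did 8.18% of protein-coding genes detected in both. Of these genes 5.47% differed at least as much as Zic4 and 14.4% at least as much as Zic5. For Zic1 and Zic2 the effective length was the same in both pups.

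With the length of the main transcript used in both pups, Zic4 stood at 11.0 in pup 1 and 23.7 in pup 3 (TPM), or 2.16-fold higher in pup 3. Zic5 was then at 17.1 and 12.4 TPM, 1.38-fold higher in pup 1, and Zic1 and Zic2 kept their values. On this scale the order in pup 1 was Zic1, Zic5, Zic4 and Zic2. As log2(TPM + 1) ratios of pup 3 over pup 1, the values were -0.88 for Zic1, -0.17 for Zic4, -0.84 for Zic2 and -1.03 for Zic5 with the deposited lengths, and 1.04 for Zic4 and -0.44 for Zic5 with 1 length per gene. Scaling factors from edgeR gave -0.98, 1.01, -0.95 and -0.53 on counts in the same order. Zic1, Zic2 and Zic5 were lower in pup 3 under each of these scalings, and Zic4 was lower under TPM and higher under counts or a fixed length.

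**Figure D5:**
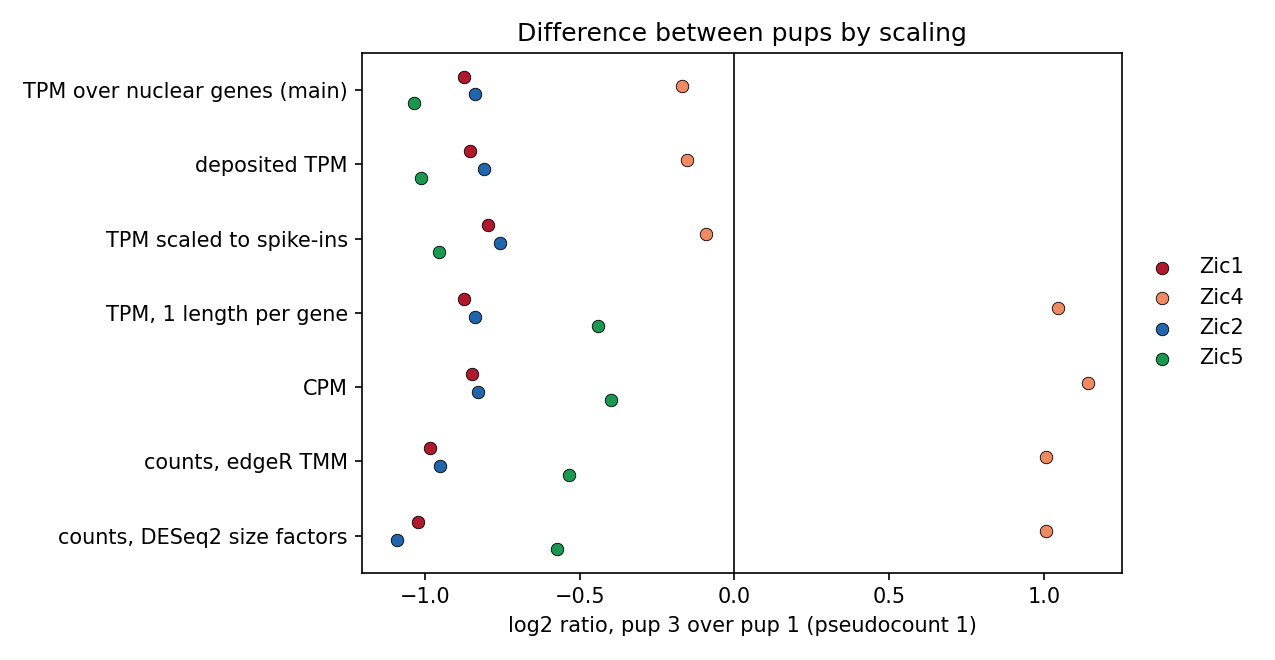
The log2 ratio of pup 3 over pup 1 for each Zic gene under 7 scalings, with a line at no difference. Zic1, Zic2 and Zic5 are left of the line in each row, and Zic4 lies at -0.17 in the main row and at 1.01 to 1.14 in the rows that use counts.

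The promoters of 3 members were available from RefSeq (GRCm38.p6, 250 bases before to 50 after the start), and they are shown because the transcript assignments bear on which start is used. The windows are chr9:91365719-91366018 (minus) for Zic1, chr9:91368722-91369021 (plus) for Zic4 and chr14:122465609-122465908 (minus) for Zic5. Capitals mark GC boxes (GGGCGG) and CCAAT boxes (CCAAT), searched on both strands, and no match overlaps another.
Zic1: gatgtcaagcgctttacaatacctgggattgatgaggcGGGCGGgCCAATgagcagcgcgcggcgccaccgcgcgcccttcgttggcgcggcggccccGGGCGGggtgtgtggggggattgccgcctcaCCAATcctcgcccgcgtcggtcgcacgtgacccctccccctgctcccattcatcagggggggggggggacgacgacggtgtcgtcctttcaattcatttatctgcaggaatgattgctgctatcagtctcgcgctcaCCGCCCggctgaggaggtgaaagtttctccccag
Zic4: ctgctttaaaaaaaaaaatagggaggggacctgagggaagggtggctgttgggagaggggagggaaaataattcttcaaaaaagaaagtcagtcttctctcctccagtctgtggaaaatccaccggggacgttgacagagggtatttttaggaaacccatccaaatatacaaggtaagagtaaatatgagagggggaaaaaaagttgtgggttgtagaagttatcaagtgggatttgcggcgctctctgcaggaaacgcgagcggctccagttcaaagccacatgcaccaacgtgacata
Zic5: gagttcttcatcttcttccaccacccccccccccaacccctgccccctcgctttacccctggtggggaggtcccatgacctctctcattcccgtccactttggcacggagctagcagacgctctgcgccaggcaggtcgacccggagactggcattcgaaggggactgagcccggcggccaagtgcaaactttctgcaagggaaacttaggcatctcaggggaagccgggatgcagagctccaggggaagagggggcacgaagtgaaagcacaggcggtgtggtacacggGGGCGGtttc
Zic1 held 3 GC boxes and 2 CCAAT boxes, Zic5 held 1 GC box, and Zic4 held neither. Of 32851 promoters of the same length, 35.7% held a GC box and 37.4% a CCAAT box. GC content was 65.3% in Zic1, 62.7% in Zic5 and 46.0% in Zic4. The Zic1 window belongs to the start of Zic1-201, which received all Zic1 counts. In the Zic4 window, exon 1 of Zic4-207 ends at base 173 and is followed by GT, so the first Zic4-207 junction printed above departs from here. Zic4-201, which received all counts of pup 3, starts 9830 nt farther along the chromosome than Zic4-207, outside this window. The RefSeq start of the Zic4 window lies next to that of Zic4-204 (91368970), which received 0 expected counts in both pups. The motifs and GC content given for Zic4 are therefore not those at the start of Zic4-201.

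The genes around the pairs were next compared. Within 500 kb of the Zic1/Zic4 locus the tables hold 15 other annotated genes, none of them protein-coding, and 11 were detected in neither pup. Of all 43309 nuclear genes, 12251 were detected in pup 1 and 10527 in pup 3. The share detected in neither was not counted over all genes, so whether either locus is unusual was not tested. A730094K22Rik, an unclassified transcript 7105 nt beyond the end of Zic1, had no count in pup 1 and 276 in pup 3. The pseudogene Gm5620 had 58.6 and 147 counts. Gm36960 had 11 and 1, and Gm37665 had 9 and 0.

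Within 500 kb of the Zic2/Zic5 locus lie 19 other genes, 10 of them protein-coding, and 9 were detected in at least 1 pup. Of these, 4 were detected in both pups, 4 in pup 1 only and 1 in pup 3 only. 2610035F20Rik, a non-coding gene between Zic5 and Zic2 that starts 236 nt from Zic2 on the opposite strand, had 238 counts in pup 1 and 0 in pup 3. Zic2, which faces it, had the higher share of counts in pup 1 too, as did 45.5% of protein-coding genes detected in both. A link between Zic2 and 2610035F20Rik was not tested. Ubac2 had 1350 and 1367 counts, and Pcca, a subunit of the mitochondrial propionyl-CoA carboxylase, had 304 and 102. Tm9sf2 had 89 and 6952, and the mitochondrial enzyme gene Clybl had 176 and 3579. Ggact, Tmtc4 and the non-coding A330035P11Rik had 488, 1034 and 14 counts in pup 1 and 0 in pup 3, and 4930594M22Rik (ENSMUSG00000075463.3) had 0 and 1009. The neighbours thus differed between pups in both directions.

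The GLI and GLIS factors are relatives of the family by their zinc fingers. Of 6 such factors, 1 was detected in both pups, a count that ran from 0 to 2 with the limit of detection, beside 37.8% of all nuclear protein-coding genes. The same share stands beside the lists that follow. Glis2 had 6 counts (pup 1) and 1270 counts (pup 3), and Gli3, a hedgehog effector that works mainly as a repressor, 43 and 1. Gli1, Glis1 and Glis3 had 0 in both, and Gli2 had 0 and 1. The median of the list was 0 TPM (pup 1) and 0.00558 TPM (pup 3), beside 0.113 and 0 TPM over all nuclear protein-coding genes.

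Of 6 genes for proteins reported to bind Zic factors, 3 were detected in both pups, with list medians of 15.01 and 12.2 TPM. Parp1 was at 82.2 and 107 TPM in pup 1 and pup 3, Xrcc6, the Ku70 subunit of the DNA-PK complex, at 47.5 and 24.4 TPM, and the RNA helicase gene Dhx9 at 7.93 and 65.3 TPM. Xrcc5, for Ku80, had 1124 and 0 counts and Prkdc, for the catalytic subunit, 651 and 0. Mdfi, an inhibitor that holds Zic proteins in the cytoplasm, had 0 in both. Of 5 genes reported as Zic targets, 2 were detected in both, with list medians of 8.49 and 0 TPM. Apoe was at 3536 and 3225 TPM and the guidance receptor gene Ephb1 at 16.8 and 23.1 TPM. The serotonin transporter gene Slc6a4 had 444 and 0 counts, and Atoh1 and Drd1 had 0 in both.

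The labelled tissue was checked by its markers. Of 15 Hox genes from groups 1 to 5, markers of the hindbrain and upper cord, 6 were detected in both pups, a share near the 37.8% of all nuclear protein-coding genes. All 15 summed to 177 TPM in each pup (medians 0.102 and 0 TPM), with Hoxb5, Hoxa5 and Hoxc4 the highest. Of 10 forebrain factors none was detected in both and 7 were at 0 counts in both, Emx1 and Dlx1 among them (medians 0 TPM in both pups). Over all nuclear protein-coding genes the median was 0.113 TPM in pup 1 and 0 TPM in pup 3, so values at or near 0 were common. Eomes, a factor of cortical progenitors that some cerebellar cells also use, had 0 and 558 counts. In the cerebellar granule lineage, where Zic1 and Zic2 are known to be used, 11 of 15 genes were detected in both, with Meis1, Reln and Neurod1 the highest and medians of 21.6 and 20.3 TPM. The summed level of the list was 608 TPM (pup 1) and 563 TPM (pup 3). Much of it came from Meis1, at 228 and 195 TPM, and Reln, at 120 and 89.6 TPM. Atoh1, the factor of granule cell progenitors, and Nhlh1 had 0 counts in both.

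Among 16 signals and factors of the roof plate and rhombic lip, where Zic genes act early, 4 were detected in both pups and 9 were at 0 counts in both, with medians of 0 TPM. The medians over all nuclear protein-coding genes were 0.113 and 0 TPM. Pax3, a paired box factor of the dorsal neural tube, was at 24.9 and 21.02 TPM, the ligand gene Bmp7 at 6.40 and 15.4 TPM, and Msx1 at 7.84 and 2.50 TPM. Of 13 factors of dorsal hindbrain neurons, 4 were detected in both, with medians of 0 and 4.39 TPM. Prrxl1, of sensory relay neurons, was at 9.74 and 74.9 TPM, Pou4f1 at 49.3 and 24.7 TPM and Lhx9 at 23.98 and 23.6 TPM.

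Meningeal fibroblasts also use Zic genes, and their transcripts were present. Of 13 meningeal genes 9 were detected in both pups, and all 13 summed to 2684 TPM (pup 1) and 4937 TPM (pup 3), with medians of 28.1 and 36.1 TPM. Ptgds was at 2333 and 4325 TPM, Dcn at 84.6 and 167 TPM and Slc6a13 at 85.2 and 107 TPM. Foxc1, a factor that defines these cells, had 814 counts (pup 1) and 15 counts (pup 3), and Foxc2 and Foxd1 had 0 in both. The list's sum, most of it Ptgds, was higher in pup 3. By TPM, 8 of the 13 genes were higher in pup 3 and 3, Foxc1 among them, in pup 1. Of all protein-coding genes detected in both pups, 45.7% had the higher TPM in pup 1, so most of them were also higher in pup 3. Zic1, Zic2 and Zic5 were higher in pup 1, and Zic4 was higher in pup 1 by TPM and in pup 3 by counts. The part of meningeal or granule lineage cells in the Zic levels was not tested.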

How the data were processed

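Gene and transcript tables of 2 libraries were used. The deposited expected counts (estimated reads per feature), TPM, FPKM and the percent of the TPM of a gene that each transcript takes were made by the authors on mm10 with annotation M4, per the deposited notes. The column layout is that of RSEM, and for the aligner, versions and strand setting the sources used here give nothing. Identifiers were matched to GENCODE M21 on the same assembly (42462 of 43346 mouse genes), and every member transcript has the same length in both annotations. TPM was rescaled over 43309 nuclear genes. Detection needed 5 expected counts, the pseudocount was 1, and intervals are exact at 95% (scipy 1.17.1). With 1 group no test was made. edgeR 4.0.16 and DESeq2 1.42.0 gave scaling factors on rounded expected counts as alternatives only. The counting functions were tested on simulated data. The members and lists were chosen with earlier results of these data known. Named genes were the 4 members, all detected members of lists of up to 7 genes, the 3 highest of longer lists, detected genes within 500 kb, and the 3 genes nearest in level. Further list members at 0 in 1 or both pups, together with Foxc1, were named after their values were seen, and so was the choice of motifs. Some items are not reported here and were left out of the lists. The fixed-length alternative was added after seeing the data.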

Additional observations from a re-analysis of the deposited data

How the results depend on the processing

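Detection of all 4 members in both libraries held at 1 or 10 counts, at 1 TPM, with pup 1 scaled down and in each library alone. The lowest values, 168 counts and 3.93 TPM for Zic2 in pup 3, lie far above these limits, so none of these settings could have changed the result. With pseudocount 5 the log2 ratios of pup 3 over pup 1 were -0.73 for Zic1, -0.52 for Zic2 and -0.85 for Zic5. The ratio of Zic4 (-0.17) reversed to 1.14 in CPM, 1.01 with edgeR factors, 1.01 with DESeq2 size factors and 1.04 with 1 length per gene, the choice added after seeing the data. Under these 4 settings Zic5 was at -0.40, -0.53, -0.57 and -0.44. Zic1 was at -0.98 with edgeR and -1.02 with DESeq2. By construction, these 4 settings do not use the effective length that differed between the pups. The mean level of Zic4 was 22.5 in deposited TPM, 28.7 over protein-coding genes and 17.4 with 1 length. GLI and GLIS factors detected in both (1 of 6) numbered 2 at 1 count, 0 at 10 counts and 0 at 1 TPM. The other 78 alternatives of these results moved by less than the spread or within 1.5-fold. Among them, leaving out 1 library could not move a level or isoform share past the SD of 2 values. Those settings therefore say nothing about stability. The share of Zic4-201 was 27.5% in pup 1 and 100% in pup 3 and still counted as unmoved. Genes that differed between pups numbered 4472 at 4-fold and 6962 at 2-fold. The median log2 ratio of protein-coding genes detected in both was 0.14 under the main scaling, 0.02 with edgeR, 1.67e-05 with DESeq2 and 0.22 with spike-ins. No paired analysis was possible because there is 1 group. Depth did not limit the detection of these genes. Any comparison is limited by the number of animals and by the small sample of RNA, 13 pg, in each library.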

Other observations

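The protein-coding genes nearest to each Zic gene in level over the 2 pups, by distance in log2(TPM + 1), were BC003965, Sinhcaf and Thy1 for Zic1, Snrnp200, Ndufaf7 and Atp8a1 for Zic4, Unc13c, Zmym2 and Ppp1r37 for Zic2, and Snn, Kctd10 and Hnrnpll for Zic5. Within a distance of 0.1 lay 6, 9, 3 and 4 genes in that order. With 2 libraries such nearness describes a pair of levels and no more.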
